A study of Rattus norvegicus with 18 samples.

Results

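The transcripts described here encode proteins of the cytosolic ribosome, the mitochondrial ribosome, and the respiratory chain in dorsal root ganglia (DRGs) of rats. A transcript was a member if the tables of the study that pair transcript identifiers with symbols gave it a symbol starting with *Rpl*, *Rps*, *Mrpl*, *Mrps*, *Nduf*, *Cox*, *Uqcr*, *Sdh*, or *Atp5*, and if its mean raw count over the 18 rats was at least 20. Of 41078 transcripts in the count table, 3837 had a symbol, 62 of these matched, and 50 from 49 genes passed the minimum. They comprised 24 cytosolic ribosomal transcripts (9 of the large and 15 of the small subunit), 12 mitochondrial ribosomal transcripts (8 large and 4 small), and 14 respiratory chain transcripts (7 of complex I, 1 of complex II, 4 of complex IV, and 2 of complex V, with complex III not represented). Members just inside the minimum included *Rplp2* and *Mrpl36*, with mean raw counts of 23.4 and 29.8, and the transcripts just outside were further transcripts of *Rps16* and *Rps9* and 1 of *Cox7a1*, with 19.8, 18.2, and 15.9.

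The rule used measured values, because symbols came from the top of sorted tables. The table for TKA against sham rats named 23 members (12 cytosolic, 5 mitochondrial ribosomal, 6 respiratory), so their TKA and sham values chose them and are a description only. The table for sham against naive rats named the other 27 members (12, 7, and 8), and *Rps12* and *Cox6a2* stood in both tables. Those 27 all lay among 1975 entries that shared 1 tied adjusted p-value, and 99.6% of the tied entries with a known chromosome were on the same chromosome. The tie does not order them by their change, and 25 of the 38 member genes with a RefSeq promoter are on chromosome 1. The members are a part of each machinery and not its full set.

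Rats were naive (no procedure), sham (isoflurane anesthesia, a skin incision over the left knee, and sutures), or TKA (anesthesia and total knee arthroplasty, in which a steel prosthesis replaced the joint surfaces of the left knee). Each group held 6 Sprague Dawley rats of about 300 g, 3 labelled male and 3 labelled female, and no transgene is named. An age was not given in the sources used here. Left DRGs of lumbar levels 3 and 4 were taken 24 h after surgery. Total counts per rat ranged from 20230562 to 29343899.

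Ribosomes in the cytosol translate nuclear messenger RNA, and a separate ribosome inside mitochondria translates the few messages of the mitochondrial genome, which encode core subunits of the respiratory chain. The remaining subunits of that chain are encoded in the nucleus. The chain passes electrons from NADH (complex I) or succinate (complex II) to oxygen at complex IV, while complex V makes ATP. Messages of the cytosolic ribosome classically start with a C followed by a run of pyrimidines, the 5′ terminal oligopyrimidine (TOP) tract, through which mTOR signaling sets their translation. Sensory neurons keep both machineries at a high level to supply long axons, and muscle and testis use their own forms of some subunits.

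Sequences at the annotated start are described for the 3 classes, with no test between them. Promoters from RefSeq (build GRCr8, 250 bases before to 50 after the start) were matched by symbol for 38 of 49 genes. The windows below run from 20 bases before to 10 bases after the annotated start, 5′ to 3′ on the strand of the gene, and capitals mark the longest run of C or T in the window. They show 4 cytosolic, 2 mitochondrial ribosomal, and 2 respiratory chain genes whose values are given below, and 2 of the 4 cytosolic windows have the TOP-like start counted next, a larger share than in the class.
Rpl23 (chr10:83272175-83272204, minus strand): cttgtactaaCTTCCTTTCTgactctttcc
Rpl28 (chr1:78083523-78083552, minus strand): tgtcgccccgcccctagtgTCTTTCTTTCC
Rps15 (chr7:10068106-10068135, minus strand): gcagccgctgacaccgCTTCCTTTTCCCag
Rps3 (chr1:163195767-163195796, minus strand): TTCCTTTCCTTTCagcggcgcgcggcagca
Mrpl41 (chr3:28179746-28179775, minus strand): agtgtctgaCCCCgcctatggtcggaatcg
Mrps26 (chr3:138222304-138222333, plus strand): ggcggggacaggagaTTCCCgtgatgctcc
Ndufv1 (chr1:210734882-210734911, minus strand): gacagccggaggtgactggtccggCTTCCg
Atp5mc3 (chr3:79220655-79220684, minus strand): tgCTgcggcacggataagagccgcaccgcg

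A C at the annotated first base followed by 4 pyrimidines was found in 5 of 17 cytosolic genes (29.4%), in 0 of 8 mitochondrial ribosomal and 0 of 13 respiratory chain genes, and in 2.63% of all 33469 promoters. Allowing the C at any of the first 5 bases gave 47.1% of cytosolic genes, 12.5% of mitochondrial ribosomal genes, 15.4% of respiratory chain genes, and 9.06% of all promoters. The longest pyrimidine run between 20 bases before and 30 after the start, a measure chosen after the sequences were seen, had a median of 10 bases in the cytosolic class, 6.5 in the mitochondrial ribosomal class, and 5.0 in the respiratory chain, against 5.0 over all promoters. A run of at least 8 bases was present in 76.5% of cytosolic genes, 37.5% of mitochondrial ribosomal genes, 7.69% of respiratory chain genes, and 19.1% of all promoters.

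The full promoters were searched for 5 motifs on both strands, the last of them chosen after the sequences were seen. GGGCGG, the GC box, was in 82.4% of cytosolic, 62.5% of mitochondrial ribosomal, and 30.8% of respiratory chain promoters, against 33.1% of all. CCGGAAG, an ETS-type site, was in 23.5%, 37.5%, and 7.69% of the classes against 8.75% of all promoters, and from 100 bases before to 50 after the start it was in 5.88% of cytosolic promoters (1 of 17) against 6.28% of all. AAGATGG, a YY1-type site, was in 23.5%, 37.5%, and 23.1% against 7.01%. TGCGCA, the core of an NRF1-type site, was in 23.5%, 37.5%, and 30.8% against 7.24%. CTTTCC, letters seen at the start of several cytosolic genes and overlapping the pyrimidine runs, was in 64.7% of cytosolic promoters, in 4 of 8 mitochondrial ribosomal promoters, and in 15.4% of respiratory chain promoters, against 26.4% of all. These matches describe letters and do not show binding.

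TKA rats 2 and 6 both stood apart in neurofilaments and in the summed markers of myelinating Schwann cells. TKA rat 2 also stood far apart in the summed skeletal muscle markers and in *Calca*, as given below. *Nefl*, a neurofilament of large sensory neurons, was at 5632 CPM in TKA rat 2 and 7401 CPM in TKA rat 6 (CPM is the count relative to the library total after TMM scaling). It was between 12470 and 15881 CPM in the 12 naive and sham rats. TKA rats 1 and 5, at 10168 and 10933 CPM, also lay below those 12 rats. TKA rats 3 and 4, at 14089 and 12922 CPM, lay within their range. The summed level of the 8 named markers of myelinating Schwann cells, of 10 listed, was 89653 and 51054 CPM in TKA rats 2 and 6. It was at most 17699 CPM in naive and sham rats. The 4 named skeletal muscle markers, of 10 listed, summed to 8369 CPM in TKA rat 2, 876 CPM in TKA rat 6, and at most 606 CPM in naive and sham rats. Of these markers, *Acta1* was at 648 CPM in TKA rat 3 and 631 CPM in TKA rat 6. The 4 named sensory neuron markers, of 10 listed, summed to 17146 and 21634 CPM in TKA rats 2 and 6, against 34413 to 47097 CPM in naive and sham rats. This sum was carried by 3 neurofilaments, and the fourth marker, *Calca*, of peptidergic neurons, was at 68.9 CPM in TKA rat 2 but at 453 CPM in TKA rat 6, within the 426 to 628 CPM of naive and sham rats. In the other TKA rats *Calca* was at 652 to 699 CPM, above that range. The 5 named macrophage markers, of 8 listed, summed to 711 CPM in TKA rat 2 and to 296 CPM in TKA rat 6. The latter lay within the 65.9 to 362 CPM of naive and sham rats. The 3 named satellite glia markers, of 5 listed, summed to 1688 and 569 CPM in TKA rats 2 and 6, against 272 to 542 CPM. The glial sum was carried by *Glul* (1638 and 545 CPM, against 223 to 497 CPM), while *Fabp7* was at 48.4 and 24.4 CPM against 26.6 to 51.8 CPM and *Apoe* at most 1.99 CPM in all of these rats. No named marker of these lists was at 0 in all naive and sham rats. In a bulk ganglion, fewer cells of a type and less RNA per cell cannot be told apart. Class values below are given with and without TKA rats 2 and 6, as are single members whose value in TKA over sham rats moved by over 1.5 times or turned.

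Over members with a mean count of at least 500, the median standard deviation of log2 CPM within the naive and sham groups was 0.136 for 15 cytosolic, 0.172 for 11 mitochondrial ribosomal, and 0.173 for 10 respiratory chain transcripts, against 0.167 over 6461 transcripts. This measure leaves out TKA rats. The SD over rats of the cytosolic class median was 0.218 in TKA, 0.114 in sham, and 0.0536 in naive rats. For the mitochondrial ribosome it was 0.168, 0.0778, and 0.0845, and for the respiratory chain 0.0836, 0.137, and 0.0850. The class medians of the log2 fold-change, sham over naive, were 0.02 (13 of 24 above 0), 0.09 (9 of 12), and 0.02 (9 of 14), against 0.01 over all 15153 transcripts tested, of which 51.7% lay above 0. Of the 50 members, 0 were called with edgeR (adjusted p under 0.05 and at least a 1.5-fold difference) and 0 with DESeq2, and 1 (*Rps6*, lower in sham rats) had an unadjusted p under 0.05 in edgeR. Of all transcripts 0.0% were called with edgeR and 4.12% had an unadjusted p under 0.05 (2.49% higher and 1.64% lower in sham rats). DESeq2 called 4 of all transcripts without a prior on the fold-change and 0 with one. These values describe the contrast whose table named 29 of the members, 2 of them together with the other table.

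In TKA against sham rats the 3 classes lay on different sides of 0. The median log2 fold-change was 0.29 for the cytosolic ribosome (22 of 24 members above 0), -0.20 for the mitochondrial ribosome (11 of 12 below 0), and -0.10 for the respiratory chain (10 of 14 below 0). The median over all 15320 transcripts tested was 0.01, and 51.5% of them lay above 0. With edgeR's quasi-likelihood test and Benjamini-Hochberg adjustment, 0 members were called, against a background of 0.0% of all transcripts, and adjusted p ranged from 0.518 to 0.998. An unadjusted p under 0.05 was reached by 17 members (8 higher in TKA, 9 lower), against 8.84% of all transcripts (5.94% higher, 2.9% lower). The TKA against sham table had named 16 of these 17, so nothing is read from that count. It was 6 without TKA rats 2 and 6 and 3 with the neurofilament covariate described below. It was 8 with rat number as a block, 10 with sex as a covariate, and from 5 (without sham rat 2) to 18 with 1 rat left out. The shares of all transcripts at that p in these fits are not given, so nothing is read from these changes. DESeq2 called 0 members with or without a prior on the fold-change, against 56 and 62 of all 15320 transcripts. It gave 13 and 15 members an unadjusted p under 0.05, and its share of all transcripts at that p is not given. In 0 of 50 members did the TKA and sham rats not overlap, against 0.444% of all transcripts with every TKA rat higher and 0.352% with every TKA rat lower.

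**Figure D1:**
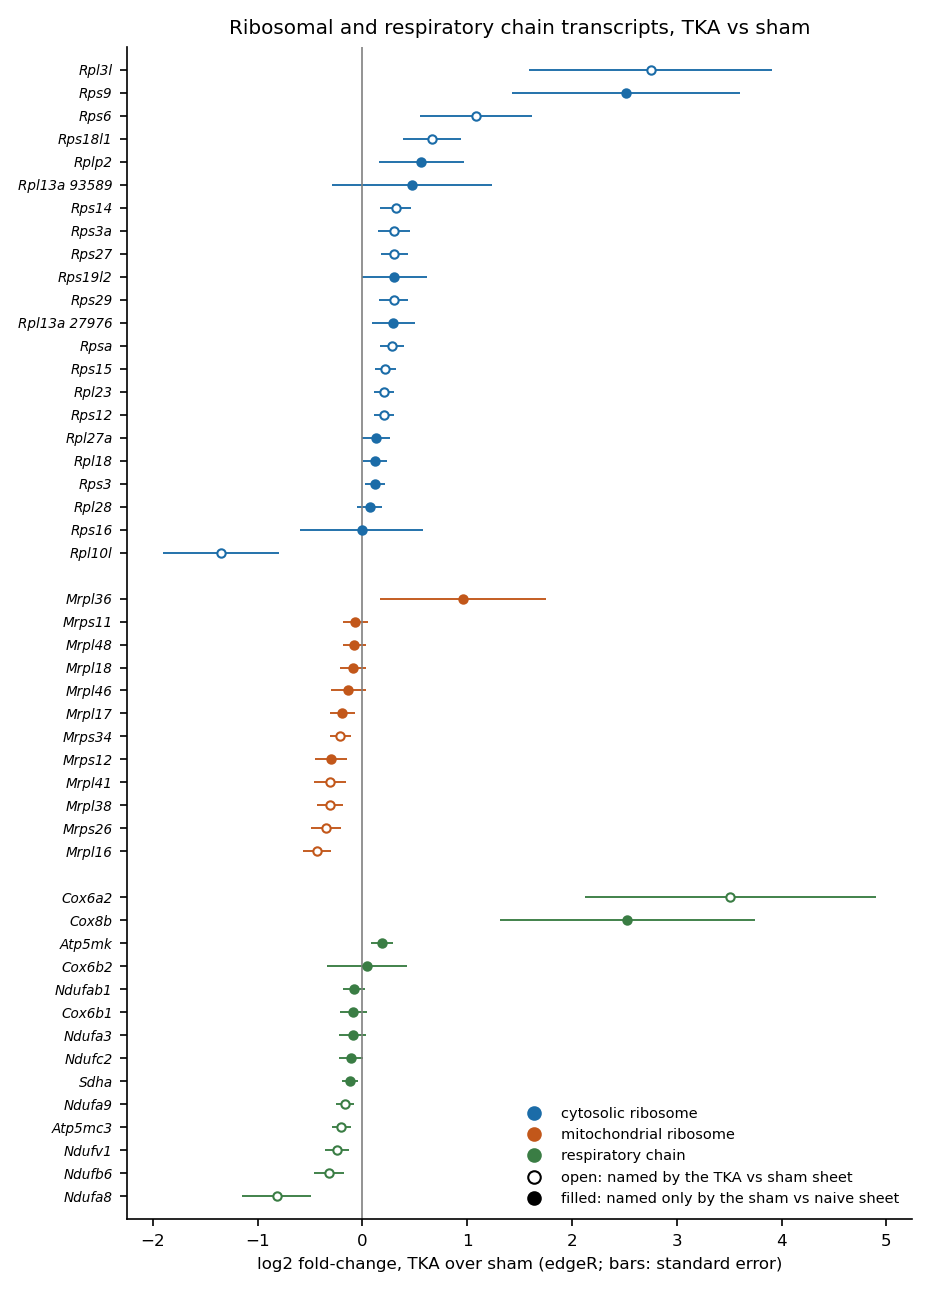
Log2 fold-change of 48 members in TKA over sham rats (horizontal axis, edgeR; bars are standard errors; n = 6 rats per group), grouped by class and sorted within it, with 5 last digits added where a gene has more than 1 transcript. Open points were named by the TKA against sham table and so were chosen by this contrast. Most of the cytosolic members drawn lie right of 0 (20 of 22) and most mitochondrial ribosomal members left of it (11 of 12). The widest bars belong to *Cox6a2*, *Cox8b*, *Rpl3l*, and *Rps9*, each far higher in 1 TKA rat than in the other TKA rats.

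Of the 27 members that this contrast did not choose, the medians were 0.21 (11 of 12 above 0) for the cytosolic ribosome, -0.09 (6 of 7 below 0) for the mitochondrial ribosome, and -0.08 (5 of 8 below 0) for the respiratory chain. With edgeR 0 of the 27 were called, 1 (*Rps9*) had an unadjusted p under 0.05, and adjusted p ranged from 0.556 to 0.998. DESeq2 called 0 of them and gave 0 an unadjusted p under 0.05.

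The cytosolic value was highest in TKA rats 2 and 6. For each rat, the median over the 24 cytosolic members of log2 CPM minus the naive mean was 0.49 in TKA rat 2 and 0.46 in TKA rat 6, from 0.01 to 0.16 in the other 4 TKA rats, and from -0.17 to 0.11 in naive and sham rats. TKA rats 2 and 6 exceeded all 12 naive and sham rats in 15 and 16 of the 24 cytosolic members, and the other TKA rats in 1 to 7. For the mitochondrial ribosome the median was -0.43 in TKA rat 2 and -0.17 in TKA rat 6, from -0.21 to 0.04 in the others, and from -0.11 to 0.20 in naive and sham rats. For the respiratory chain it was -0.23 and -0.20 in these rats, from -0.11 to -0.01 in the other TKA rats, and from -0.25 to 0.10 in naive and sham rats. The lowest of these, -0.25, was sham rat 4.

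**Figure D2:**
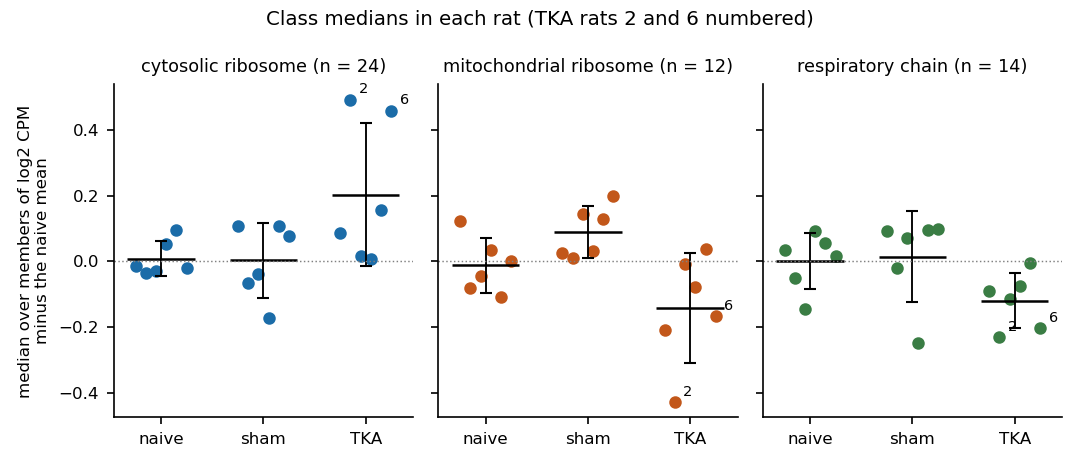
Median over the members of a class of log2 CPM minus the naive mean (vertical axis), 1 point per rat, for the cytosolic ribosome (left), mitochondrial ribosome (middle), and respiratory chain (right). Horizontal lines are group means and bars are SD (n = 6). TKA rats 2 and 6 are numbered and lie above the other rats in the cytosolic class (0.49 and 0.46).

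Without TKA rats 2 and 6, the cytosolic median was 0.08 (18 of 24 above 0), and 0.03 (7 of 12) over the members this contrast did not choose. The mitochondrial ribosomal median was then -0.15 (9 of 12 below 0) and the respiratory chain median -0.09 (10 of 14 below 0). Leaving out TKA rat 2 alone gave a cytosolic median of 0.16, and leaving out TKA rat 6 alone 0.19. Without sham rat 4 the respiratory chain median was -0.17. When the average log2 level of 3 neurofilaments (*Nefh*, *Nefl*, and *Nefm*) entered the fit of all 12 rats, the medians were 0.012, -0.068, and -0.070, with 13 of 24 cytosolic members above 0. Neurofilament and Schwann cell levels thus moved with the cytosolic value. All 3 neurofilaments were lower in TKA rats 1, 2, 5, and 6 than in every naive and sham rat. The covariate therefore went with group, and this fit cannot tell neurofilament level and surgery apart. Schwann cell level entered no fit, and its part in the cytosolic value was not tested.

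**Figure D3:**
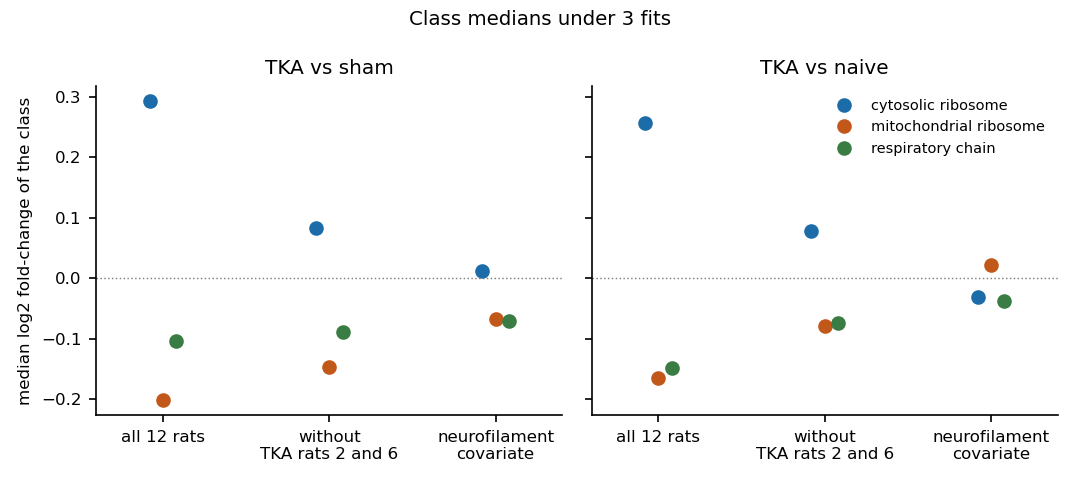
Median log2 fold-change of each class (vertical axis) in TKA over sham (left) and TKA over naive rats (right) from 3 fits: all 12 rats, without TKA rats 2 and 6, and all 12 rats with the neurofilament level as a covariate. The cytosolic median is 0.29, 0.08, and 0.012 against sham rats and 0.26, 0.08, and -0.031 against naive rats.

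Among proteins of the small cytosolic subunit, the levels of *Rpsa* (ENSRNOT00000025225), which also serves as a laminin receptor, were 385, 388, and 430 CPM (lowest, median, and highest) in naive rats, 360, 387, and 397 CPM in sham rats, and 396, 425, and 594 CPM in TKA rats. All 6 TKA rats lay above the sham median, and TKA rat 2 (594 CPM) and TKA rat 6 (516 CPM) lay farthest. *Rps3a* (ENSRNOT00000016329) was at 240, 243, and 257 CPM in naive, 233, 252, and 268 CPM in sham, and 236, 273, and 450 CPM in TKA rats, again with TKA rats 2 (450 CPM) and 6 (366 CPM) above the rest. *Rps29* (ENSRNOT00000005577), a small zinc-binding protein, was at 155, 165, and 185 CPM in naive, 150, 165, and 202 CPM in sham, and 166, 198, and 268 CPM in TKA rats. The groups overlapped for all of these transcripts, which the TKA against sham table had chosen, and their fold-changes on the log2 scale were 0.28 ± 0.11 (SE), 0.30 ± 0.15, and 0.30 ± 0.14. They were 0.10, 0.026, and 0.083 without TKA rats 2 and 6.

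*Rps3* (ENSRNOT00000023935), which lines the messenger RNA entry channel, was not chosen by this contrast. Its levels were 224, 237, and 257 CPM in naive, 188, 239, and 258 CPM in sham, and 230, 249, and 274 CPM in TKA rats, and it differed by 0.12 ± 0.10 (SE) on the log2 scale, TKA over sham (edgeR, adjusted p = 0.706, exact permutation p = 0.158, two-sided, n = 6 per group), and by 0.046 without TKA rats 2 and 6.

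In the large subunit, *Rpl18* (ENSRNOT00000028555), *Rpl27a* (ENSRNOT00000019247), and *Rpl28* (ENSRNOT00000058943) were not chosen by the contrast, and their log2 fold-changes, TKA over sham, were 0.12 ± 0.12, 0.13 ± 0.14, and 0.07 ± 0.12 (SE), with adjusted p of 0.755, 0.777, and 0.866 in edgeR. These turned to -0.010, -0.059, and -0.082 without TKA rats 2 and 6. *Rpl13a* (ENSRNOT00000027976), known also for a role in silencing inflammatory messages, was at 14.0, 20.8, and 24.04 CPM in naive rats, 16.1, 20.6, and 33.3 CPM in sham rats, and 20.8, 23.5, and 41.1 CPM in TKA rats, and the highest value was TKA rat 2. Its log2 fold-change over sham was 0.30 ± 0.21 (adjusted p = 0.682), and 0.092 without TKA rats 2 and 6. *Rplp2* (ENSRNOT00000038691), of the acidic stalk, had low levels of 0.38, 0.80, and 1.49 CPM in sham and 0.92, 1.23, and 1.76 CPM in TKA rats (0.56 ± 0.41, adjusted p = 0.687).

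Other large and small subunit members chosen by the contrast (*Rpl23*, *Rps12*, *Rps14*, *Rps15*, *Rps27*, and the *Rps18*-like copy *Rps18l1*) had log2 fold-changes from 0.20 to 0.67. Without TKA rats 2 and 6 they were 0.15 for *Rpl23*, 0.084 for *Rps12*, 0.13 for *Rps14*, 0.081 for *Rps15*, 0.11 for *Rps27*, and 0.54 for *Rps18l1*. *Rps18l1* and *Rps19l2* are copies of other ribosomal genes, and reads that fit both a copy and its parent gene can be split, so their levels are uncertain. *Rpl10l*, a paralog of *Rpl10* used in the testis, was low, with 1.33, 1.89, and 4.26 CPM in sham and 0.21, 0.80, and 1.63 CPM in TKA rats (log2 fold-change -1.35, and -2.06 without TKA rats 2 and 6). *Rps16* was the other cytosolic member not above 0 (-0.01 ± 0.59), with few counts, and was at 0.30 without TKA rats 2 and 6. The ENSRNOT00000093589 transcript of *Rpl13a* was at 0.47 ± 0.76 (adjusted p = 0.859), and *Rps19l2* at 0.30 ± 0.31 (adjusted p = 0.777), and without these rats they were at -0.29 and 0.11.

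In 2 small subunit members the difference came from single rats. *Rps9* (ENSRNOT00000090819) was at 17.6 CPM in TKA rat 6, at most 0.509 CPM in the other TKA rats, and at most 1.32 CPM in naive and sham rats. Its log2 fold-change over sham was 2.52 ± 1.09 (edgeR, adjusted p = 0.556, exact permutation p = 0.959) -0.59 without TKA rat 6, and -0.75 without TKA rats 2 and 6. *Rps6* (ENSRNOT00000010383), whose phosphorylation is a common readout of mTOR signaling, was at 62.3 CPM in naive rat 1 and 30.6 CPM in TKA rat 4, and at most 6.67 CPM in the other 16 rats. Its log2 fold-change over sham was 1.09 ± 0.54, and sham and naive rats differed through naive rat 1.

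Most mitochondrial ribosomal members lay below 0 in TKA over sham rats, but none was called. *Mrpl16* (ENSRNOT00000028517) was at 23.1, 27.3, and 33.2 CPM in naive rats, 23.8, 29.1, and 42.0 CPM in sham rats, and 19.7, 22.9, and 24.1 CPM in TKA rats. All 6 TKA rats lay below the sham median, and the lowest sham rat (rat 1, 23.8 CPM) lay within the TKA range. *Mrps26* (ENSRNOT00000028828) was at 34.0, 39.3, and 49.5 CPM in naive, 28.1, 41.9, and 45.9 CPM in sham, and 26.6, 29.9, and 39.3 CPM in TKA rats, and *Mrpl38* (ENSRNOT00000011328) at 41.8, 47.9, and 49.1 CPM in naive, 42.0, 50.7, and 58.3 CPM in sham, and 28.7, 42.5, and 45.1 CPM in TKA rats. All 3 were chosen by the contrast. Their log2 fold-changes were -0.43, -0.35, and -0.31 with all rats, and -0.43, -0.42, and -0.25 without TKA rats 2 and 6.

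*Mrpl17* (ENSRNOT00000050562) was not chosen by this contrast and had 164, 173, and 192 CPM in sham and 99.3, 166, and 171 CPM in TKA rats. All 6 TKA rats lay below the sham median, and TKA rat 2 was the lowest at 99.3 CPM. The difference was -0.19 ± 0.12 (SE) on the log2 scale (edgeR, adjusted p = 0.640, exact permutation p = 0.0455, two-sided), -0.08 without TKA rats 2 and 6, and 0.00 with the neurofilament covariate. *Mrps12* (ENSRNOT00000027029), of the decoding center, had 21.0, 27.2, and 33.8 CPM in sham and 16.4, 20.7, and 28.5 CPM in TKA rats (-0.30 ± 0.16, adjusted p = 0.594, exact permutation p = 0.0758). *Mrps34* and *Mrpl41*, chosen by the contrast, had log2 fold-changes of -0.21 and -0.31, and TKA rat 2 was the lowest rat in both, and without TKA rats 2 and 6 they were -0.17 and -0.16. *Mrpl18*, *Mrpl46*, *Mrpl48*, and *Mrps11*, not chosen by it, had log2 fold-changes between -0.14 and -0.07, and without TKA rats 2 and 6 *Mrpl46* and *Mrps11* turned to 0.026 and 0.036. *Mrpl36* was the exception above 0 (0.96 ± 0.79, adjusted p = 0.723), with 0.00, 0.64, and 2.18 CPM in sham and 1.23, 1.85, and 2.28 CPM in TKA rats, and its 1 sham rat at 0 allows up to 0.126 CPM (3 counts).

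In the respiratory chain, complex I gave 7 log2 fold-changes, all below 0 in TKA over sham rats. *Ndufv1* (ENSRNOT00000024517), the flavoprotein subunit that takes electrons from NADH, was at 229, 246, and 258 CPM in naive, 192, 252, and 274 CPM in sham, and 158, 212, and 242 CPM in TKA rats. TKA rats 2 (158 CPM) and 6 (187 CPM) were the lowest, and its log2 fold-change was -0.24 with all rats and -0.15 without them. The accessory subunits *Ndufa8*, *Ndufb6*, and *Ndufa9*, also chosen by the contrast, had log2 fold-changes of -0.82, -0.32, and -0.16, and *Ndufa3*, *Ndufc2*, and *Ndufab1*, the mitochondrial acyl carrier, which were not chosen by it, -0.09, -0.11, and -0.08 (adjusted p from edgeR of 0.829, 0.775, and 0.819). *Ndufc2* was at -0.042 and *Ndufab1* at -0.039 without TKA rats 2 and 6.

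*Sdha* (ENSRNOT00000018336), the catalytic flavoprotein of complex II, had 346, 350, and 383 CPM in naive rats, 291, 343, and 358 CPM in sham rats, and 292, 313, and 323 CPM in TKA rats. All 6 TKA rats lay below all 6 naive rats, and they overlapped sham rats through sham rat 4 (291 CPM). Against sham rats the difference was -0.12 ± 0.08 on the log2 scale (edgeR, adjusted p = 0.669, exact permutation p = 0.0433, two-sided).

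*Atp5mc3* (ENSRNOT00000058234), of the rotating ring of complex V, was at 248, 286, and 302 CPM in sham and 199, 252, and 269 CPM in TKA rats, with all TKA rats below the sham median (-0.20 ± 0.09, chosen by this contrast). *Atp5mk* (ENSRNOT00000027496), a small subunit that helps complex V form dimers, lay on the other side. It had 56.3, 67.3, and 81.2 CPM in naive, 59.1, 64.8, and 81.0 CPM in sham, and 68.2, 77.8, and 84.4 CPM in TKA rats, and the difference over sham was 0.19 ± 0.10 (edgeR, adjusted p = 0.608, exact permutation p = 0.0779), 0.23 without TKA rats 2 and 6, and 0.23 with the neurofilament covariate. *Cox6b1* (ENSRNOT00000032026), the common form of this complex IV subunit, had 110, 179, and 206 CPM in sham and 151, 158, and 174 CPM in TKA rats (-0.09 ± 0.13, adjusted p = 0.844), and its testis form *Cox6b2* had 0.87, 1.57, and 2.38 CPM in sham and 0.97, 1.45, and 2.66 CPM in TKA rats (0.04 ± 0.38, adjusted p = 0.978, and 0.18 without TKA rats 2 and 6).

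**Figure D4:**
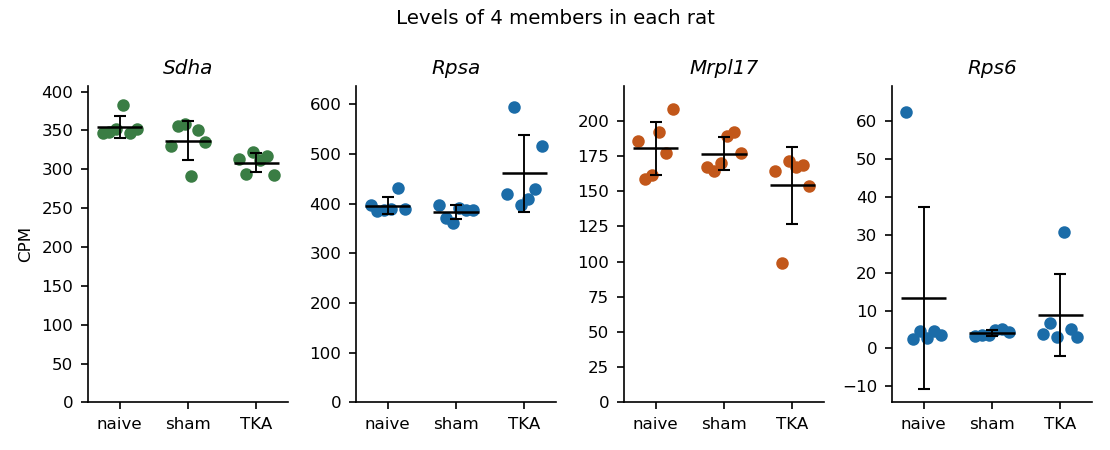
CPM (vertical axes; that of *Rps6* extends below 0 for the error bars) of *Sdha*, *Rpsa*, *Mrpl17*, and *Rps6* in each of 6 naive, 6 sham, and 6 TKA rats, 1 point per rat, with the mean and SD of each group. *Sdha* is lower in every TKA rat (at most 323 CPM) than in every naive rat (at least 346 CPM), *Rpsa* is highest in TKA rats 2 and 6, and *Rps6* is high in 1 naive rat (62.3 CPM) and 1 TKA rat (30.6 CPM).

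The striated muscle forms of 3 proteins were near 0 except where skeletal muscle markers were high. *Cox6a2* (ENSRNOT00000026908), the heart and skeletal muscle form of a complex IV subunit, was at 0 in 5 of 6 naive rats, which allows up to 0.144 CPM (3 counts) in a rat, and at 2.34 CPM in the other. Sham rats had from 0.00 to 4.66 CPM. TKA rat 2 had 91.5 CPM, and the other TKA rats from 0.00 to 13.8 CPM. *Cox8b* (ENSRNOT00000019679), the muscle form of another complex IV subunit, was at 32.0 CPM in TKA rat 2, at most 5.74 CPM in the other TKA rats, and at most 3.51 CPM in naive and sham rats. *Rpl3l* (ENSRNOT00000019660), the muscle paralog of *Rpl3* in the large cytosolic subunit, was at 45.1 CPM in TKA rat 2, at most 6.12 CPM in the other TKA rats, and at most 3.59 CPM in naive and sham rats. In the same libraries *Acta1*, the actin of skeletal muscle, was at 5877 CPM in TKA rat 2, at most 648 CPM in the other TKA rats, and from 12.2 to 398 CPM in naive and sham rats.

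Their log2 fold-changes, TKA over sham, were 3.51 ± 1.39 (SE) for *Cox6a2*, 2.53 ± 1.22 for *Cox8b*, and 2.75 ± 1.16 for *Rpl3l*. Without TKA rats 2 and 6 they were 1.22, 0.51, and 0.69. *Cox8b*, the only one of them not chosen by this contrast, had an adjusted p of 0.565 (edgeR) and an exact permutation p of 0.444. The part of muscle RNA in these values was not tested beyond the *Acta1* levels.

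**Figure D5:**
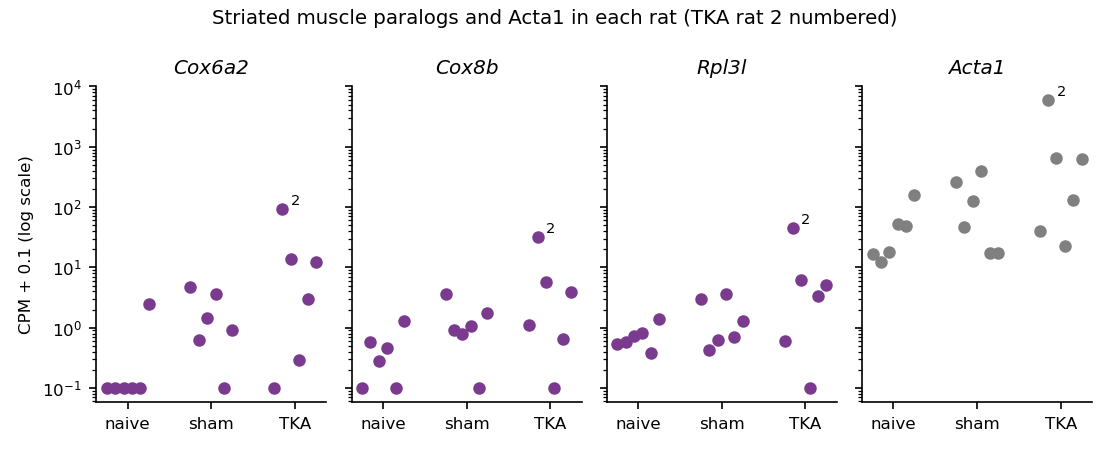
CPM plus 0.1 on a log scale (vertical axis) of *Cox6a2*, *Cox8b*, *Rpl3l*, and the skeletal muscle actin *Acta1* in each naive, sham, and TKA rat (n = 6 per group, 1 point per rat). TKA rat 2 is numbered and is the highest rat in each panel (91.5, 32.0, 45.1, and 5877 CPM). Points on the lowest line are rats at 0.

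The 150 bases upstream of the annotated starts of these muscle forms are shown because their levels moved together. CAGCTG, a palindromic form of the E-box read by muscle basic helix-loop-helix factors, is in capitals. It was in the 300-base promoters of *Cox6a2* and *Cox8b* and not in that of *Rpl3l*, and in 15.1% of all promoters.
Cox6a2 (chr1:192219717-192219866, minus strand): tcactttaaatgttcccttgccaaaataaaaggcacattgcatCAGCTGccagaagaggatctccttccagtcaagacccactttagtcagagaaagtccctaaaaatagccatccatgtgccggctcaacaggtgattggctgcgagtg
Cox8b (chr1:205408274-205408423, minus strand): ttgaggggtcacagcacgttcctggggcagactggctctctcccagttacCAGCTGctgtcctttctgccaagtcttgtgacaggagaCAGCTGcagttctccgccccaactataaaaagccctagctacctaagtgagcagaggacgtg
Rpl3l (chr10:14258296-14258445, plus strand): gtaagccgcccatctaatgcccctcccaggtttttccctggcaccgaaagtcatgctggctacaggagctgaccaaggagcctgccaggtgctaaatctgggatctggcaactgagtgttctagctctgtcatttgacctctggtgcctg

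TKA rats were also compared with naive rats. This comparison shares its TKA rats with the one above, so the classes are given side by side and are no further test. The medians of the log2 fold-change were 0.26 for the cytosolic ribosome (21 of 24 above 0), -0.17 for the mitochondrial ribosome (9 of 12 below 0), and -0.15 for the respiratory chain (10 of 13 tested below 0, *Cox6a2* not passing the filter on low counts), against 0.02 over all 15170 transcripts, of which 52.2% lay above 0. Without TKA rats 2 and 6 the medians were 0.08, -0.08, and -0.07, and with the neurofilament covariate -0.031, 0.023, and -0.038. Without naive rat 6 alone the respiratory chain median was -0.08, and without TKA rat 2 alone the mitochondrial ribosomal median was -0.11. With edgeR, 0 of 49 members were called, against a background of 0.0857% of all transcripts, and 18 had an unadjusted p under 0.05 (11 higher in TKA, 7 lower), against 17.2% of all transcripts (11.7% higher, 5.48% lower). Of these 18, 15 had been named by the TKA against sham table, which used the same TKA rats. The count was 6 without TKA rats 2 and 6, 1 with the neurofilament covariate, and 7 with rat number as a block. With 1 rat left out it ranged from 8 (without TKA rat 6) to 19. The shares of all transcripts at that p in these fits are not given, so nothing is read from these changes.

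Of the 27 members that the TKA against sham table did not name, 0 of 27 were called in TKA against naive rats and 3 had an unadjusted p under 0.05 in edgeR. *Rpl13a* (ENSRNOT00000027976) was 0.42 ± 0.19 (SE) higher on the log2 scale (adjusted p = 0.275, exact permutation p = 0.0455), and *Cox8b* 4.32 ± 1.34 higher (adjusted p = 0.166, exact permutation p = 0.0823), and without TKA rats 2 and 6 these were 0.23 and 2.32. *Sdha* was -0.19 ± 0.07 on the log2 scale (edgeR, adjusted p = 0.211). It was the 1 member of 50 in which no TKA rat overlapped a naive rat. Of all transcripts, 1.16% had every TKA rat higher and 1.42% had every TKA rat lower. The exact permutation p of *Sdha*, 0.00216 (two-sided, n = 6 per group, unadjusted), is the smallest that 6 rats against 6 can give. *Sdha* had an adjusted p of 0.0264 in DESeq2 without a prior and 0.0286 with one, and stayed under the 1.5-fold threshold in both, and over all alternatives its adjusted p ranged from 0.0264 to 0.796. Its log2 fold-change was -0.16 without TKA rats 2 and 6 and -0.14 with the neurofilament covariate. DESeq2 without a prior also called *Rpl3l*, which TKA rat 2 dominated, and DESeq2 with a prior called 0 members. Of all transcripts they called 429 and 343.

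Sex as labelled was not used to choose members and was tested over all 18 rats with group as a covariate. With edgeR 0 of 50 members were called, against a background of 0.0132%, and 3 had an unadjusted p under 0.05, all higher in rats labelled female, against 9.05% of all transcripts (4.04% higher, 5.01% lower). DESeq2 also called 0 members, against 42 of all transcripts, and gave 4 members an unadjusted p under 0.05. Its share of all transcripts at that p is not given. *Rps19l2* (ENSRNOT00000027246) had 35.2 ± 12.7 CPM (SD, n = 9) in rats labelled female and 22.8 ± 4.45 CPM (SD, n = 9) in rats labelled male. Its difference, female over male, was 0.62 ± 0.18 on the log2 scale (edgeR, adjusted p = 0.374), and 8 of 9 rats labelled female lay above the male median. *Mrpl16* and *Mrpl17* differed by 0.23 ± 0.10 and 0.18 ± 0.08 (adjusted p = 0.495 and 0.533). The library labelled female TKA rat 4 lay nearer the male than the female mean on 10 of the 11 transcripts called for sex without it. With that rat left out, the differences were 0.66, 0.24, and 0.18 (adjusted p = 0.421, 0.558, and 0.626).

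Other genes of the same pathways, from lists of transcripts with a symbol, were described beside the members. Of 13 translation factors (symbols starting with *Eef* or *Eif*), 9 had a log2 fold-change above 0 in TKA over sham rats, with a median of 0.31, 0 at an adjusted p under 0.05, and 7 at an unadjusted p under 0.05, all higher, beside the 8.84% of all transcripts (5.94% higher). These 7 are the ones that the TKA against sham table named, so the count supports nothing. Without TKA rats 2 and 6 the median was 0.069 (9 of 13 above 0), with 3 at an unadjusted p under 0.05. The share of all transcripts at that p in this fit is not given. *Eef1a1*, which brings transfer RNA to the ribosome, was at 2384 ± 347 CPM in TKA and 1891 ± 82.2 CPM in sham rats (SD, n = 6, adjusted p = 0.533). *Eif4ebp1*, the mTOR target that holds back translation when not phosphorylated, was at 11.4 ± 3.46 and 5.79 ± 2.64 CPM (adjusted p = 0.523). Of 3 named genes of 32 listed for ribosome biogenesis, *Myc* was at 6.67 ± 3.02 CPM in TKA and 2.93 ± 0.727 CPM in sham rats (adjusted p = 0.411), and *Polr1a*, of RNA polymerase I, at 47.0 ± 3.28 and 54.8 ± 6.25 CPM (adjusted p = 0.557). *Utp4*, of the small subunit processome, was at 28.1 ± 6.40 and 35.4 ± 4.31 CPM (adjusted p = 0.563). The median log2 fold-change of these 3 was -0.21 (1 of 3 above 0), and all had been named by the TKA against sham table. For mitochondria, the median log2 fold-change was -0.17 over 5 named import genes (1 of 5 above 0), -0.03 over 4 of 13 listed biogenesis genes (2 of 4 above 0), and 0.27 over 4 of 18 listed tricarboxylic acid cycle genes (2 of 4 above 0). The TKA against sham table had named 2 of the 5, 1 of the 4, and all 4 of these, so these medians are a description only. None of these named genes reached an adjusted p under 0.05 in any of the 3 group comparisons with edgeR and all rats. *Myc* did in TKA against naive rats under other settings, among them without TKA rats 2 and 6. The study, with DESeq2, listed *Myc* as higher in TKA than in sham rats, at an adjusted p under 0.05 and at least a 1.5-fold change. With TKA rats 2 and 6 left out, the medians in TKA over sham rats were -0.085 for import, -0.13 for mitochondrial biogenesis, and -0.028 for the tricarboxylic acid cycle.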

How the data were processed

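DRG RNA of 18 rats (6 naive, 6 sham, 6 TKA) was sequenced by the authors as paired-end reads of 150 bp. Per the submitters' processing notes, reads were aligned to rn6 with HISAT2, counted with featureCounts, and tested with DESeq2. Versions, and how strand and overlaps were handled, are not given in the sources used here. The authors deposited raw counts per Ensembl transcript, without normalization, so reads shared by isoforms, copies, or overlapping genes are uncertain. Total counts per rat ranged from 20230562 to 29343899. Groups, rat numbers, and sex came from the labels, and each rat is 1 sample. The members, gene lists, and tests were chosen with earlier results of these data known.

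Symbols came from the study's tables, 2 of which were shortened copies sorted by adjusted p-value. The columns of fold-changes and unadjusted p-values in them were not used, and the adjusted p-values served only to find the tied entries. Each pair of groups was fitted on its 12 rats with edgeR 4.0.16 in R 4.3.3 (filterByExpr, TMM, quasi-likelihood F test, Benjamini-Hochberg over all transcripts tested). A call needed an adjusted p under 0.05 and at least a 1.5-fold difference. Standard errors were derived from the log2 fold-change and F. Log2 CPM used a prior count of 2, scaled over 18 rats. Single members not chosen by a contrast also had an exact permutation test on log2 CPM (924 splits). Standard errors and SDs include the spread between rats. The limits given for rats at 0 cover counting error only.

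As alternatives, DESeq2 1.42.0 was run (without a prior on the fold-change, and with one), and edgeR with RLE size factors, no filter on low counts, no fold-change threshold, all 3 groups fitted together, sex as a covariate, rat number as a block, no TKA rats 2 and 6, a neurofilament covariate, a mean count of at least 100 for class medians, and each rat left out in turn. The pyrimidine runs, the CAGCTG and CTTTCC searches, and the pathway lists without TKA rats 2 and 6 and with the neurofilament covariate were added after the data were seen. The rule for values by group took, in each class and naming table, the 3 members with the largest change in TKA over sham rats, the 3 per class with the lowest p for sex, muscle and testis paralogs, members with 1 rat far from its group, and members beside the count minimum. Other members given by group were chosen after their values were seen. On simulated counts of TKA and sham rats (15320 transcripts, 200 changed), edgeR recovered 43 of 100 changed 2-fold and 74 of 100 changed 4-fold, DESeq2 58 and 85, and with no change they called 0 and 4. No pair of rats held the same library (the lowest chi-square per degree of freedom was 10.6, the median 29.8). Promoter sequences are RefSeq's, build GRCr8, matched by symbol, and the start used by a counted transcript may differ. Values of 2 members that enter the class counts and medians are not reported here.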

Additional observations from a re-analysis of the deposited data

Results flagged for a closer look

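Of 150 groups of values (50 members in 3 groups of 6 rats), 19 held 1 rat far from the other 5. Far means that its log2 CPM stood apart for the range of its group. Chance gives about 7.5 (about 1 in 20 groups). The groups share the same rats, and *Cox6a2* was at 0 in 5 naive rats, so no excess over chance is read. TKA rat 2 was the far rat in 5 of the 19 groups and sham rat 4 in 4.

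TKA rat 2 was high in *Rpl13a* (ENSRNOT00000027976), at a log2 CPM of 5.36 (41.1 CPM). It was low in 4 proteins of the large mitochondrial ribosomal subunit, with log2 CPM of 4.31 for *Mrpl16* (19.7 CPM), 6.63 for *Mrpl17* (99.3 CPM), 4.85 for *Mrpl38* (28.7 CPM), and 4.48 for *Mrpl41* (22.2 CPM).

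Sham rat 4 was low each time, in *Rpl13a* (ENSRNOT00000093589, log2 CPM -3.52, 0 counts), *Rpl23* (6.63, 99.2 CPM), *Rps14* (6.32, 80.0 CPM), and *Cox6b1* (6.78, 110.1 CPM).

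Among other TKA rats, *Rps9* was high in rat 6 at a log2 CPM of 4.15 (17.6 CPM), *Rps6* was high in rat 4 at 4.94 (30.6 CPM), and *Mrpl18* was low in rat 1 at 4.55 (23.4 CPM). Among naive rats, *Rps6* was high in rat 1 at 5.96 (62.3 CPM), *Rpsa* in rat 5 at 8.75 (430.4 CPM), *Sdha* in rat 4 at 8.58 (383 CPM), and *Cox6a2* in rat 6 at 1.28 (2.34 CPM), while *Rps15* was low in rat 6 at 7.39 (167 CPM) and *Rps27* in rat 2 at 5.30 (39.3 CPM). In sham rat 6, *Mrpl46* was low at 4.34 (20.2 CPM).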

How the results depend on the processing

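With edgeR, 0 transcripts of the whole table were called in TKA against sham rats, and 62 with DESeq2 without a prior, 56 with a prior, and 11 with all 3 groups in one fit. In TKA against naive rats 13 were called, and 429 with DESeq2 without a prior, 343 with a prior, 116 with all 3 groups in one fit, 105 without TKA rats 2 and 6, 39 with the neurofilament covariate, and from 3 to 113 with 1 rat left out (113 without TKA rat 2). In sham against naive rats 0 became 4 with DESeq2 without a prior. For sex, 2 became 42 with DESeq2, 6 with no filter on low counts, and 1 to 11 with 1 rat left out (11 without TKA rat 4). The cause was not tested. Members were called under 1 alternative only, *Rpl3l* in TKA against naive rats with DESeq2 without a prior.

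With the neurofilament covariate, the cytosolic median was 0.012 in TKA over sham and -0.031 in TKA over naive rats, and in the latter the mitochondrial ribosomal median was 0.023 and the respiratory chain median -0.038. Among values of single members, 50 moved by more than the spread between rats and 2029 did not. A pyrimidine run of at least 8 bases in place of the TOP-like start gave 76.5% of cytosolic and 37.5% of mitochondrial ribosomal genes. From 100 bases before to 50 after the start, GGGCGG was in 52.9% and CCGGAAG in 5.88% of cytosolic promoters, against 25.3% and 6.28% of all promoters.

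The correlation of same-numbered rats ranged from -0.0497 to 0.219. Rats of different numbers were not compared in this way, so these values cannot decide whether rat numbers pair the rats. With rat number as a replicate block, 1 transcript was called in TKA against naive rats and 0 members in any comparison. Totals of 20230562 to 29343899 counts per rat leave wide errors for members with few counts, such as *Rplp2* and *Mrpl36*.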

Other observations

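Among member genes with a RefSeq promoter, *Mrpl46* (minus strand) and *Mrps11* (plus strand) were the 1 pair on opposite strands with annotated starts within 1000 bases facing away from each other. The starts lay 234 bases apart on chromosome 1 of GRCr8, at positions 142117030 and 142117264. Both encode mitochondrial ribosomal proteins, 1 of the large and 1 of the small subunit. In TKA over sham rats their log2 fold-changes were -0.14 ± 0.17 and -0.07 ± 0.12 (SE), with adjusted p of 0.810 and 0.872 in edgeR, and they turned to 0.026 and 0.036 without TKA rats 2 and 6. In both transcripts TKA rat 2 was the lowest rat (14.6 and 24.9 CPM) and TKA rat 5 the highest TKA rat (31.8 and 36.7 CPM).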
